A study of Mus musculus with 23 samples.

Results

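Bone marrow-derived macrophages (BMDM) that lacked the kinase MK2 were compared with wild-type (wt) BMDM in the resting state, before any contact with bacterial LPS. These were the 3 arrays of MK2-/- BMDM and the 4 arrays of wt BMDM kept in medium, 7 of the 23 arrays of the 2 h experiment. All genes with a probe assigned to a RefSeq or GenBank entry were included. The labels give both groups as male C57BL/6 mice, and the methods give a C57BL/6J background. Femoral marrow was grown for 9 days with 10 ng/ml M-CSF, the growth factor that turns marrow progenitors into macrophages. The cells were changed to M-CSF-free medium shortly before the experiment and then kept in medium for 120 min. The wt mice were 12 or 13 weeks old and the MK2-/- mice 10, 11 and 13 weeks. The MK2-/- mice carry a germline deletion, so every cell of the culture and of the donor animal lacked the kinase throughout development. The remaining arrays, which share the fit, hold the same genotypes after 100 ng/ml LPS and BMDM that lacked both MK2 and MK3 (MK2/3-/-) with either treatment. The MK2/3-/- mice were 11 to 14 weeks old, and the MK2-/- mouse of LPS replicate 3 was 12 weeks old.

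MK2 is a serine/threonine kinase that is switched on by the stress-activated kinase p38 and stays bound to it in resting cells. Its substrates include the small heat shock protein HSP27 and tristetraprolin, an RNA-binding protein that marks inflammatory transcripts with AU-rich elements for decay. In macrophages the axis is best known for cytokine production after LPS, and the medium arrays ask which transcripts differ before that signal arrives. MK3 is a close relative with overlapping substrates.

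All 4 wt arrays were on slide 1 and all 3 MK2-/- arrays on slide 2, so that genotype and slide cannot be told apart in any value below. Spots well above background made up 57.7 to 61.4% of each wt array and 54.9 to 56.3% of each MK2-/- array, without overlap, and the part of this gap in the gene differences was not tested. A gene counts as detected where all 4 wt or all 3 MK2-/- arrays had it well above background, which held for 15818 of 25998 genes. Over the 15726 of them measured on all arrays compared, arrays of different genotype correlated with r between 0.957 and 0.990 (12 pairs) and wt arrays among themselves with r between 0.964 and 0.990 (6 pairs). Several arrays of the series stood apart. On the first principal component of the 7 medium arrays (41.7%), wt replicate 1 was at -66.6 and the others lay between -21.7 and 47.2. The wt array of replicate 3 lay between the other wt arrays and the MK2-/- arrays for several of the genes described here, and so did the LPS array of the same culture. The LPS array of MK2-/- replicate 3, which is labelled male, had a log2 signal of 8.51 for Xist and 1.83 for Ddx3y, whereas the 7 medium arrays had 1.79 to 2.01 for Xist and 10.50 to 11.20 for Ddx3y. This LPS array of MK2-/- replicate 3 is not part of the medium comparison. It enters the quantile normalization, the choice of probes, the spread of the fit and the LPS values.

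Very few transcripts passed the test between resting MK2-/- and wt BMDM. In limma, 3 of 25998 genes passed a Benjamini-Hochberg adjusted p of 0.05, which is 0.0115% of those tested, and all 3 were lower in MK2-/- BMDM. At an unadjusted p under 0.05 there were 868 genes (3.34%), of which 537 were higher and 331 lower. The median difference over all genes was 0.02 on the log2 scale and the median absolute difference 0.18, while the median standard error of a difference was 0.32. The plot of difference against p shows Mapkapk2 far from all other genes.

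**Figure D1:**
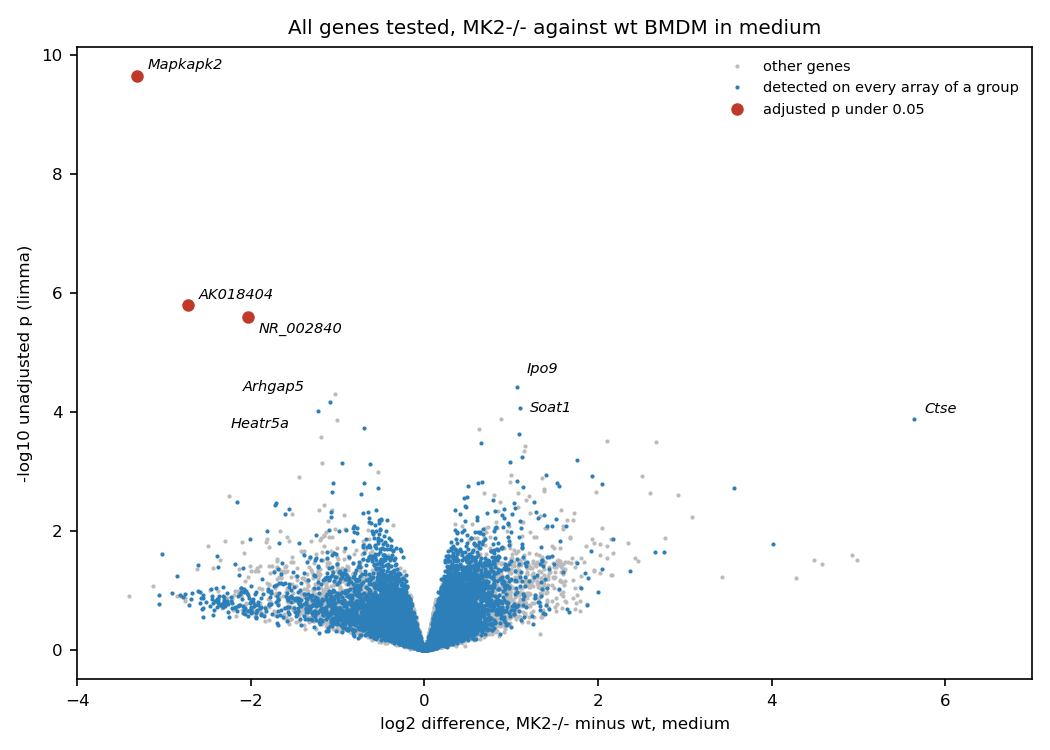
Each point is a gene, with the log2 difference between MK2-/- and wt BMDM in medium on the x axis and -log10 of the unadjusted limma p on the y axis. Blue points are detected genes, and the 3 red points, all lower in MK2-/- BMDM, passed the adjustment.

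Mapkapk2 (NM_008551), which encodes MK2, is the targeted gene. Its promoter is printed here because the transcript of the targeted gene was still measured, and still rose with LPS, in the knockout. The 300 bases lie on the minus strand of chromosome 1 in the build GRCm38.p6 (chr1:131097794-131098093, RefSeq), from 250 bases before to 50 bases after the start of the gene. Capitals mark a match to the ETS and PU.1 motif GAGGAAGT, found here on the opposite strand, and a match to the GC box GGGCGG, also on the opposite strand.

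Mapkapk2 promoter: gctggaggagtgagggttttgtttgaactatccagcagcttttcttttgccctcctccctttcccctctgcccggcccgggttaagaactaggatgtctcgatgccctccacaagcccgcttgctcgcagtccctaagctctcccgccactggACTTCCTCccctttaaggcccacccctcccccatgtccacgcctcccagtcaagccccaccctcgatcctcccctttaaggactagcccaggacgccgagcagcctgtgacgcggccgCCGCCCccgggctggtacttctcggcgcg

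The ETS and PU.1 motif was present in 3.2% of all 32851 promoters of this length and the GC box in 35.7%, with both strands searched and no overlap between the matches. The AP-1 motif TGANTCA (7.81% of promoters), the cAMP response element TGACGTCA (1.79%), a form of the NF-kB motif (1.63%) and the TATA box TATAAA (13.6%) had no match in this window. The window held 18 CpG dinucleotides, compared with a median of 7, and had a GC content of 63.3%, compared with a median of 52.7%.

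In wt BMDM the log2 signal of Mapkapk2 was 12.46, 12.64, 11.49 and 12.28 in replicates 1 to 4, and in MK2-/- BMDM it was 9.07, 8.73 and 8.94. The groups did not overlap, and wt replicate 3 was the lowest of the wt arrays. The wt mean was 12.22 ± 0.51 (SD, n = 4), whereas the MK2-/- arrays averaged 8.91 ± 0.17 (SD, n = 3), a 9.90-fold lower signal (log2 difference -3.31, SE 0.27, limma adjusted p = 5.74e-06). The exact permutation test gave p = 0.0286, the smallest p that 35 splits of 7 arrays allow. The probe stayed well above background on all 3 MK2-/- arrays. After LPS the signal rose in both genotypes, to between 14.19 and 15.37 in wt and between 11.63 and 12.30 in MK2-/- BMDM, and the difference there was -2.81 (SE 0.25, adjusted p = 2.40e-05). Where the probe lies relative to the deleted part of the gene is not given in the sources used here.

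Mapkapk3, the gene for MK3, had log2 signals of 13.12, 13.52, 13.58 and 13.78 in wt and 13.89, 13.60 and 13.73 in MK2-/- BMDM. The groups overlapped, and the difference of 0.24 (SE 0.18, adjusted p = 1.00) did not pass. In MK2/3-/- BMDM, where MK3 is deleted too, the same probe was at 11.56 to 12.08.

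The other called transcripts have no gene name in the reference used here and are given by accession. AK018404 had log2 signals of 8.74, 9.02, 7.97 and 8.55 in wt and 6.17, 5.65 and 5.72 in MK2-/- BMDM, without overlap (log2 difference -2.72, SE 0.40, adjusted p = 0.0205). NR_002840 had 12.82, 12.57, 11.93 and 13.29 in wt and 10.51, 10.75 and 10.60 in MK2-/- BMDM (log2 difference -2.04, SE 0.31, adjusted p = 0.0213). In both, as for Mapkapk2, wt replicate 3 was the wt array nearest to the MK2-/- arrays. NR_002840 has 3 probes, and they disagreed: the other probes differed by -1.0 (SE 0.34) and -0.12 (SE 0.30), both with overlapping groups, so that this difference holds for the brightest probe only. The differences kept their size when single arrays were left out, from -2.92 to -2.57 for AK018404 and from -2.28 to -1.82 for NR_002840, but most such fits lost the call. Leaving out wt replicate 1, 2 or 4 raised the adjusted p of AK018404 to between 0.0761 and 0.0895 and that of NR_002840 to between 0.0888 and 0.108. The call of AK018404 was also lost without MK2-/- replicate 2 or 3 (0.0586 and 0.0652), and that of NR_002840 without MK2-/- replicate 1, 2 or 3 (0.0949, 0.0534 and 0.0652). Mapkapk2 stayed past the threshold when any 1 of the 7 arrays was left out. In a fit to the 7 arrays alone, which has fewer arrays to estimate the spread, no gene passed and the adjusted p of Mapkapk2 was 0.201, with 1209 genes at an unadjusted p under 0.05. Both accessions were also lower in MK2-/- than in wt BMDM after LPS (log2 differences -3.31 and -2.02, adjusted p = 0.000253 and 0.00414). In MK2/3-/- BMDM in medium, set against the same wt arrays, they differed from wt by -2.70 and -2.29. The LPS arrays of a genotype share the slide and most cultures with its medium arrays. Medium and LPS arrays of a culture deviated together (r between 0.42 and 0.76 over 7 pairs), so the LPS values are no independent check.

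**Figure D2:**
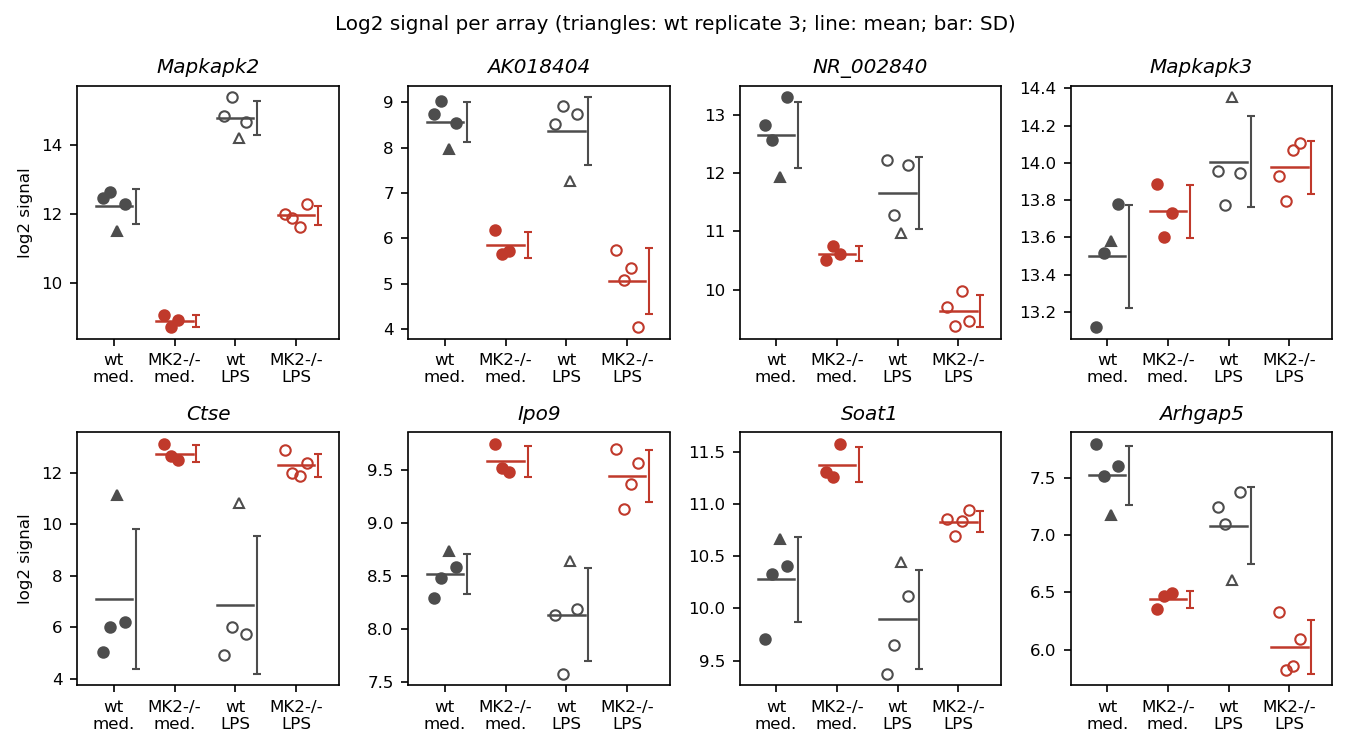
Log2 signal (y axis) of 8 transcripts on each wt (grey) and MK2-/- (red) array in medium (filled) or after LPS (open), with the group mean as a line and the SD as a bar. Triangles are the wt arrays of replicate 3, which lie nearest to the MK2-/- arrays among the wt arrays in both treatments for all transcripts shown except Mapkapk3 in both treatments.

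Beyond these 3, the genes with the lowest unadjusted p among those detected are described next. They were chosen after their values were seen, none passed the adjustment, and their values are a description. The 24 lowest, which include the called genes, had an unadjusted p of 0.00157 or less, and 14 were higher and 10 lower in MK2-/- BMDM. The MK2-/- arrays lay above all wt arrays for 4.83% of all genes tested and below all wt arrays for 1.87%. The groups did not overlap for any of the 24, which their choice by low p on the same arrays makes likely, so this tests nothing. A feature shared by several of them, and not used to choose them, was their place: the reference used here puts 8 of the 24, Mapkapk2 included, on chromosome 1 and 13 on other chromosomes. The remaining 3 are given by accession and were not placed. Chromosome 1 holds 5.66% of the 13496 detected genes that the reference places.

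Ctse, which encodes the endosomal protease cathepsin E and is the eighth measured gene from Mapkapk2 in chromosomal order, had the largest difference among these. Its log2 signal was 5.05, 6.02, 11.11 and 6.20 in wt and 13.11, 12.63 and 12.47 in MK2-/- BMDM. All MK2-/- arrays were above all wt arrays, but wt replicate 3 was far above the other wt arrays. The difference was 5.64 (SE 1.18, adjusted p = 0.321, exact permutation p = 0.0571). Without wt replicate 3 it was 6.98 (adjusted p = 0.00586), and without both wt arrays of that culture the adjusted p was 3.31e-09, for a choice made because this array stood apart. After LPS the wt arrays were at 4.95, 6.01, 10.81 and 5.73 and the MK2-/- arrays at 11.88 to 12.88, so that the culture of replicate 3 stood apart in both treatments. MK2/3-/- BMDM in medium were at 12.15 to 12.62.

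Ipo9, an importin that carries proteins into the nucleus, had log2 signals of 8.29, 8.48, 8.73 and 8.59 in wt and 9.75, 9.52 and 9.48 in MK2-/- BMDM, without overlap (log2 difference 1.06, SE 0.20, adjusted p = 0.248). After LPS its difference between the genotypes was 1.31 (adjusted p = 0.00414), which passed, on arrays that share slides and most cultures with the medium arrays. Soat1 makes cholesteryl esters for storage, and its signal was 9.71, 10.33, 10.66 and 10.41 in wt and 11.30, 11.25 and 11.57 in MK2-/- BMDM (log2 difference 1.10, SE 0.22, adjusted p = 0.311). Both lie on chromosome 1, 72 and 168 measured genes from Mapkapk2 on the side of Ctse, and for both wt replicate 3 was the highest wt array.

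Further genes of chromosome 1 among the 24 were Steap3, an endosomal iron reductase, Ralgps2, an exchange factor for Ral GTPases, and Dars, the aspartyl-tRNA synthetase. Their log2 differences were 1.09, 1.52 and -0.70, with an adjusted p of 0.427 for Steap3 and 0.997 for both others. The second probe of Steap3 went the other way (-0.96, SE 0.42), so that no direction is given for the gene. Ralgps2 had 5.67, 5.67, 6.59 and 5.62 in wt and 8.03, 6.97 and 7.22 in MK2-/- BMDM, again with replicate 3 as the highest wt array. Dars lies next to Mcm6, a subunit of the replicative helicase, which had 14.81, 15.23, 14.73 and 15.55 in wt and 14.15, 14.02 and 13.75 in MK2-/- BMDM (log2 difference -1.10, SE 0.38, adjusted p = 1.00).

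Among the 25 measured genes on either side of Mapkapk2, 35 of 50 were detected and none besides Mapkapk2 passed the adjustment. The unadjusted p was under 0.05 for 3 of the 50, namely Mcm6, Dars and Ctse, and the median difference of the 50 was 0.16. Il10, the next measured gene to Mapkapk2 which encodes an anti-inflammatory cytokine, had 5.28, 6.10, 6.30 and 5.61 in wt and 5.57, 6.19 and 6.26 in MK2-/- BMDM, with overlapping groups (log2 difference 0.19, SE 0.51). Its neighbours Il19, Il20 and Il24 differed by 0.51, -0.01 and 0.16, of which Il19 and Il20 were not well above background on any of the 7 arrays. Over the whole chromosome, 42 of 764 detected genes (5.50%) had an unadjusted p under 0.05, compared with 393 of 12732 (3.09%) on the other chromosomes. The highest share on another chromosome was 4.86%, on chromosome 10.

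**Figure D3:**
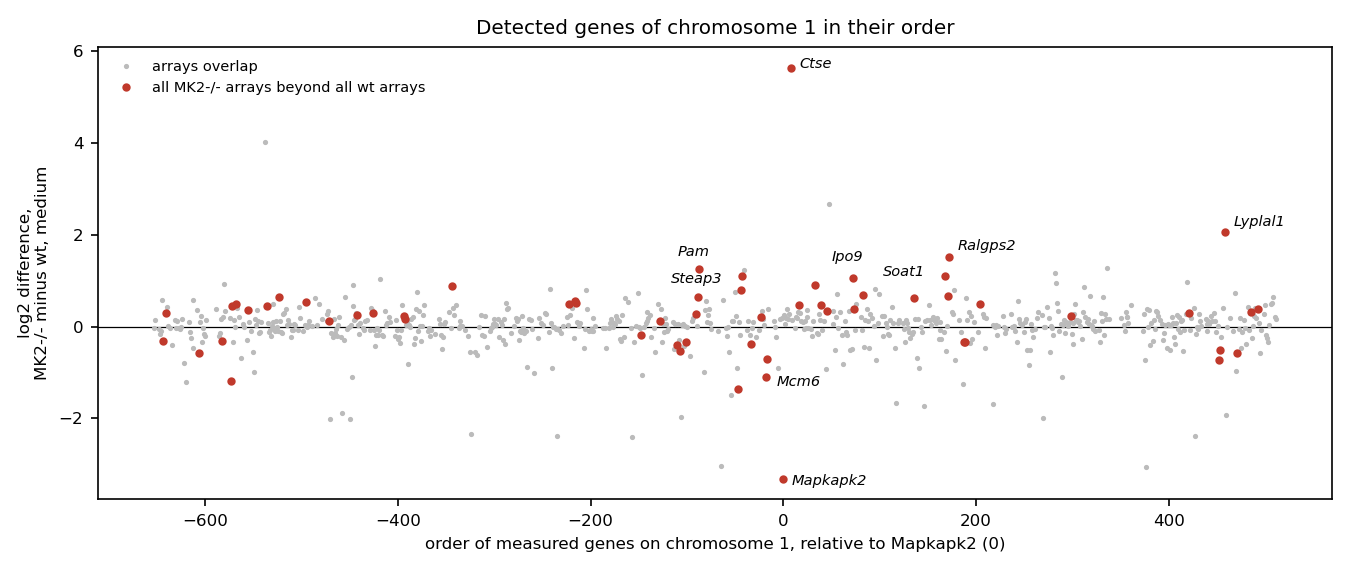
Log2 difference between MK2-/- and wt BMDM in medium (y axis) for the detected genes of chromosome 1 in their order, counted in measured genes from Mapkapk2 at 0 (x axis). Red points are genes whose MK2-/- arrays all lie beyond all wt arrays, and they include Mapkapk2 at -3.31, Ctse at 5.64 and Lyplal1 at 2.05, the last 458 measured genes away.

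The position of wt replicate 3 was measured on the linear scale, on which 0% is the mean of the other 3 wt arrays and 100% the mean of the MK2-/- arrays. It was at 53.7% for Mapkapk2, 49.4% for AK018404, 62.4% for NR_002840, 31.3% for Ctse, 30.2% for Soat1 and 62.1% for Lyplal1, a lysophospholipase-like gene of chromosome 1. In the LPS arrays the values for the same culture were 48.9%, 69.7%, 61.4%, 34.0%, 55.0% and 37.5%, in the same order. Over the 42 genes of chromosome 1 with an unadjusted p under 0.05, the median position was 37.0% for replicate 3, compared with -35.5%, 1.47% and -0.02% for replicates 1, 2 and 4. Over the 393 such genes of the other chromosomes it was 20.2% for replicate 3, compared with -38.0%, 23.2% and -2.23%. For 24 of the 42 genes replicate 3 was the wt array closest to the MK2-/- mean, while on the other chromosomes it was so for 132 of 393 and replicate 2 for 155. These genes were chosen on the same arrays, so the positions describe them and test nothing.

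When both wt arrays of the culture of replicate 3 were left out, which was decided once this culture had been seen to stand apart, 9 genes passed the adjustment, 4 higher and 5 lower in MK2-/- BMDM. All 3 genes of the full comparison were among them, and the others were Ctse, Ipo9, Soat1, Arhgap5, AK016337 and NM_008710. NM_008710 had 10.93, 11.00, 12.90 and 11.21 in wt and 12.89, 12.54 and 12.48 in MK2-/- BMDM, so that wt replicate 3 lay at the level of the MK2-/- arrays and not between the groups. It did so after LPS as well, with 12.82 compared with 10.99 to 11.24 in the other wt arrays and 12.39 to 12.94 in MK2-/- BMDM. AK016337 was not well above background on any of the 7 arrays.

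On other chromosomes the lowest p belonged to Arhgap5 and Heatr5a, which lie 4 measured genes apart on chromosome 12. Arhgap5, a GTPase-activating protein, had 7.80, 7.52, 7.18 and 7.61 in wt and 6.36, 6.47 and 6.50 in MK2-/- BMDM (log2 difference -1.09, SE 0.21, adjusted p = 0.287). It passed with the experiment letter as a block (-1.17, adjusted p = 0.0185) and without both wt arrays of the culture of replicate 3 (-1.20, adjusted p = 0.0409). Heatr5a had 13.19, 12.80, 12.54 and 13.16 in wt and 11.81, 11.62 and 11.67 in MK2-/- BMDM (log2 difference -1.22, SE 0.25, adjusted p = 0.311). The groups overlapped for Dtd2, Gpr33 and Nubpl, which lie between them. Against the same wt arrays, MK2/3-/- BMDM differed by -0.11 for Arhgap5 and -0.26 for Heatr5a, and by 5.18 for Ctse, 1.10 for Ipo9 and 0.92 for Soat1.

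Of the remaining genes, Fabp7, a carrier of fatty acids, was at 9.81 to 10.69 in wt and 11.21 to 11.58 in MK2-/- BMDM (log2 difference 1.12, SE 0.27, adjusted p = 0.695). Acss2, which makes acetyl-CoA from acetate, was at 8.15 to 8.97 and 9.18 to 9.69 (0.98, SE 0.24, adjusted p = 0.746), and its second probe differed by 0.85. Pf4, the chemokine CXCL4, was at 14.82 to 15.27 in wt and 13.56 to 14.63 in MK2-/- BMDM (-0.95, SE 0.23, adjusted p = 0.746). Pdia6, a protein disulfide isomerase, and Sympk, a scaffold of mRNA 3′ end processing, differed by -0.63 and -0.69, and Hsd17b12, an enzyme of fatty acid elongation, by -1.05. Bnc2, Eml6 and Nlgn2 differed by 1.40, 1.06 and 0.67. AK015118 was well above background on no wt array and all 3 MK2-/- arrays in medium. It counted as detected only through the group where it was higher. On these arrays its signal was at least 3.09-fold higher in MK2-/- BMDM (limma adjusted p = 0.742), which tests nothing. After LPS it was well above background on 3 wt arrays and no MK2-/- array, with a difference of 0.06. LPS changed its signal by 0.13 in wt BMDM, with a limma adjusted p of 0.911. For MK2-/- BMDM the change was -1.57, with a limma adjusted p of 0.0127. The latter is taken from the same MK2-/- medium arrays by which AK015118 was chosen, so it tests nothing. The genotype difference changed with LPS by -1.71 (SE 0.59), which rests on these arrays too and did not pass the adjustment.

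A few low-p genes belong to the LPS response. Pde4b, which degrades cAMP, had 8.10, 8.12, 8.42 and 8.17 in wt and 9.09, 8.72 and 8.76 in MK2-/- BMDM (log2 difference 0.65, SE 0.15, adjusted p = 0.475), and a second detected probe gave 0.62. LPS raised it by 4.35 in wt and 3.86 in MK2-/- BMDM, and after LPS the genotypes differed by 0.17. Olr1, a receptor for oxidised LDL, was well above background on no wt array and on all 3 MK2-/- arrays in medium. It counted as detected only through the group where it was higher. On these arrays its signal was at least 2.27-fold higher in MK2-/- BMDM (measured means 2.71 and 4.64, limma adjusted p = 0.997), which tests nothing. After LPS it reached 11.02 to 12.49 in both genotypes, with a difference of 0.14.

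The interaction of genotype and treatment asks whether the MK2-/- against wt difference changed with LPS. It passed the adjustment for 1 gene (0.00385% of those tested), and 491 genes had an unadjusted p under 0.05. The call was lost when wt medium replicate 1, 3 or 4, MK2-/- medium replicate 3, any of the 4 wt LPS replicates or MK2-/- LPS replicate 1 or 2 was left out, and under 75th percentile scaling. Without the MK2-/- LPS array that went against its label, 2 genes passed. The gene was Sbk3, a putative kinase, with an interaction of 1.86 (SE 0.27, adjusted p = 0.0384). It was not well above background on any array of either treatment, with 1.86 to 2.74 in wt and 1.81 to 2.65 in MK2-/- BMDM in medium, and 1.78 to 1.88 and 3.32 to 3.64 after LPS. No gene called in medium passed in the interaction, and the differences of the 3 called genes changed with LPS by 0.50 for Mapkapk2, -0.59 for AK018404 and 0.02 for NR_002840.

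Of the 29 measured genes of the p38 and MK cascade, 1 passed the adjustment, which was Mapkapk2, and the median difference was 0.06. Mapk14, the main p38 kinase of macrophages, had 13.83, 13.88, 14.07 and 13.85 in wt and 14.05, 14.00 and 13.91 in MK2-/- BMDM (log2 difference 0.08, SE 0.13). Zfp36, which encodes tristetraprolin, differed by -0.03 (SE 0.38) and Mapkapk5, the gene for MK5, by -0.05 (SE 0.09). Dusp2, a nuclear phosphatase of MAP kinases, had 8.80, 10.30, 8.73 and 8.72 in wt and 9.87, 10.43 and 9.76 in MK2-/- BMDM, which overlap (0.88, SE 0.41, adjusted p = 1.00). Hspb1, the gene for HSP27, ranged from 9.30 to 14.94 in wt and from 8.14 to 11.46 in MK2-/- BMDM (-2.12, SE 1.50). On the same arrays Col1a1, a collagen of stromal cells, ranged from 9.49 to 14.36 and from 7.32 to 13.08, with the highest and lowest array of each group being those of Hspb1, and the part of stromal RNA in the Hspb1 values was not tested.

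Inflammatory transcripts listed as holding AU-rich elements were measured at rest too. None of the 23 measured AU-rich inflammatory transcripts passed, 14 differed upward and 9 downward, and the median difference was 0.19, compared with 0.02 over all genes. Of the 15818 detected genes, 55.5% differed upward. Il1b, the precursor of interleukin-1β, had the lowest p, with 9.21, 10.37, 9.24 and 8.36 in wt and 10.85, 10.82 and 10.15 in MK2-/- BMDM (1.31, SE 0.42, adjusted p = 1.00, exact permutation p = 0.0857). Tnf differed by 0.37 (SE 0.40) with overlapping groups. Ifnb1, Csf2, Csf3 and Il23a were not well above background on any of the 7 arrays.

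Signalling lists upstream and downstream of the LPS receptor held no called gene. The 17 measured genes of NF-kB and IkB had a median difference of 0.10, with Rel the lowest p (0.41, SE 0.23), and the 15 of TLR4 signalling 0.15. Within the latter Irak3, an inhibitor of the pathway, had 10.15, 10.35, 10.40 and 10.08 in wt and 10.73, 10.56 and 10.62 in MK2-/- BMDM, without overlap (0.40, SE 0.16, adjusted p = 1.00). The 22 immediate-early genes had a median of 0.14 with Fosl1 the lowest p (-1.38, SE 0.83), and the 29 measured interferon-stimulated genes 0.18. Among these Bst2, which tethers budding viruses, had 14.56, 14.92, 16.12 and 15.15 in wt and 13.80, 14.28 and 15.19 in MK2-/- BMDM, with overlap (-0.77, SE 0.35, adjusted p = 1.00).

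Lists of macrophage state and metabolism were also without a called gene. Among 15 measured genes of macrophage identity, with a median difference of 0.08, Cx3cr1, the fractalkine receptor, had the lowest p (0.72, SE 0.32). Among 15 measured genes of alternative activation (median 0.14) Ccl24 led (1.13, SE 0.44), and Retnla shows a value set by 1 culture: it was at 1.90 to 2.10 in all wt arrays and at 2.04, 15.35 and 2.07 in MK2-/- BMDM. MHC class II genes had the largest positive median, 0.66 over 13 genes, 12 of them upward (compared with 55.5% of detected genes), but no p under 0.05. H2-Eb1, a class II chain, had 14.90, 17.09, 12.95 and 12.86 in wt and 15.66, 16.40 and 15.45 in MK2-/- BMDM, so that the wt arrays spanned the MK2-/- arrays. The leading gene of that list was H2-DMb2 (0.72, SE 0.45).

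Chaperones had a median difference of -0.19 over 16 measured genes, with Hsp90aa1 at -0.43 (SE 0.17) and Hsp90b1 at -0.35 (SE 0.15) below all wt arrays on all 3 MK2-/- arrays. Genes of glycolysis and HIF-1 had a median of -0.18 over 20, 15 of them downward, led by Eno1 (-0.41, SE 0.21). Cholesterol synthesis and uptake had a median of 0.19 over 20, 18 of them upward, compared with 55.5% upward among all detected genes. Cell cycle genes had a median of -0.05 over 30, and 3 of them, Mcm6, Ccne1 and Ccne2, were lower at an unadjusted p under 0.05, compared with 331 of 25998 over all genes. Ccne2 was well above background on 1 wt array and no MK2-/- array. The medians were 0.11 for 16 genes of oxidative stress defence, led by Slc7a11 (1.14, SE 0.68), 0.08 for 20 of cytoskeleton and migration, led by Cfl1 (-0.38, SE 0.14), and 0.11 for 20 of the lysosome, led by Ctsl (-0.40, SE 0.20). All adjusted p-values in these lists were 1.00. Over all 25 alternative settings, the medians kept their sign for the p38, NF-kB, immediate-early, TLR4, alternative activation, MHC class II, chaperone, cholesterol, glycolysis, cytoskeleton and lysosome lists, and the median of the AU-rich list ranged from -0.01 to 0.19 and that of the interferon list from -0.16 to 0.32. The medians of macrophage identity (-0.01 to 0.20), the cell cycle (-0.47 to 0.09) and oxidative stress defence (-0.01 to 0.18) changed sign as well. Over the 317 distinct measured genes of the 16 pathway lists, 15 (4.73%) had an unadjusted p under 0.05, and the MK2-/- arrays lay above all wt arrays for 6 and below for 8. Over all genes these shares were 3.34% at an unadjusted p under 0.05, 4.83% above and 1.87% below.

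**Figure D4:**
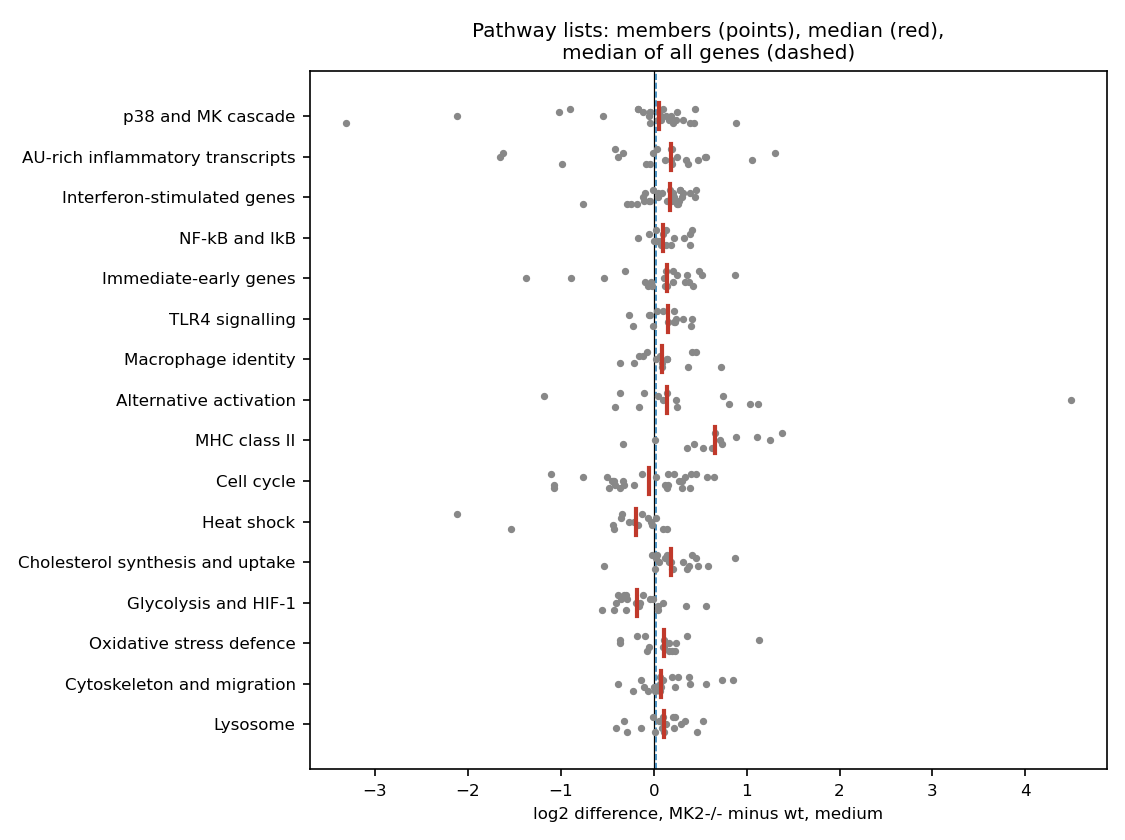
Log2 difference between MK2-/- and wt BMDM in medium (x axis) for the members (grey points) of 16 pathway lists (y axis), with the list median in red and the median of all genes, 0.02, as a dashed line. The medians run from -0.19 for chaperones to 0.66 for MHC class II genes, and Mapkapk2 is the point at -3.31 in the p38 and MK cascade.

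The 6 measured macrophage markers were well above background on all 7 arrays, as the labelled cell type has it, and none passed the test. Csf1r, the M-CSF receptor, had 18.56, 18.62, 18.62 and 18.49 in wt and 18.65, 18.56 and 18.58 in MK2-/- BMDM (0.02, SE 0.11). Adgre1, which encodes a surface antigen typical of macrophages, differed by 0.09 (SE 0.22), Itgam, the CD11b gene, by -0.36 (SE 0.27), Lyz2 by 0.37 (SE 0.31), Fcgr1 by -0.11 (SE 0.34) and Mertk by -0.07 (SE 0.54). The log2 of the summed signal of these 6 genes was 19.22 to 19.61 in wt and 19.40 to 19.54 in MK2-/- BMDM. Another marker, Cd68, had no match.

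RNA of other cells varied between cultures of 1 genotype, and in bulk RNA fewer cells of a type and less RNA per cell cannot be told apart. Stromal markers had a median difference of -1.58 over 8 genes, all downward and none past the test. Col1a1 showed this spread, with 14.36, 9.49, 12.23 and 13.23 in wt and 8.43, 7.32 and 13.08 in MK2-/- BMDM. The summed stromal signal was 13.12 to 16.78 in wt and 12.22 to 15.22 in MK2-/- BMDM on the log2 scale, and Cxcl12 had the lowest p (-2.36, SE 1.65). The neutrophil markers had a median of 0.69 over 8, led by Ngp (1.64, SE 1.24), with sums of 11.92 to 13.29 in wt and 12.42 to 13.16 in MK2-/- BMDM. The megakaryocyte sum was 14.82 to 15.27 in wt and 13.56 to 14.63 in MK2-/- BMDM, without overlap, and it consists almost wholly of Pf4, while Itga2b and Gp9 were not well above background on any array.

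The other lists had overlapping sums and no called gene. Flt3 led the dendritic cell list (1.33, SE 0.59) and Mcpt8 that of mast cells and basophils (-1.91, SE 1.31). Cd79a, the leading B cell gene, was well above background on 3 wt arrays and no MK2-/- array (adjusted p = 1.00). Its signal was 3.83, 3.68, 6.31 and 3.90 in wt and 3.57, 2.56 and 3.34 in MK2-/- BMDM. The lower bound of 1.84-fold less in MK2-/- BMDM leans on wt replicate 3, which was far above the other wt arrays. Cdh5 for endothelial cells and Mmp9 for osteoclasts were well above background on 2 wt arrays and no MK2-/- array, and no difference is given for them, nor for Cd3d and Alas2, which led the T and NK cell and erythroid lists below background. Among the defining markers that were not well above background on any of the 7 arrays were Cd3d, Cd3g, Ncr1 and Klrb1c for T and NK cells, Xcr1 and Clec9a for dendritic cells, Cpa3, Fcer1a and Ms4a2 for mast cells, Alas2 and Klf1 for erythroid cells, and Emcn for endothelial cells. Detected members were 3 of 8 measured for T and NK cells, 3 of 5 for dendritic cells and 2 of 4 for endothelial cells. They were 1 of 6 for mast cells and basophils and 0 of 4 for erythroid cells. The part of other cells in the gene differences was not tested.

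**Figure D5:**
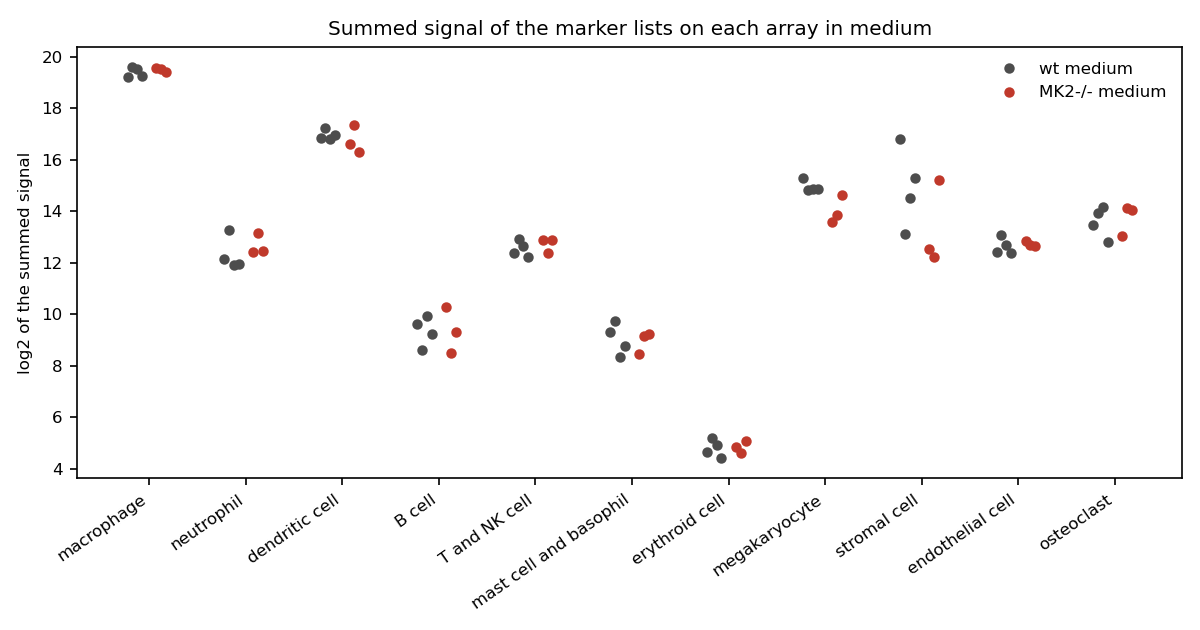
Log2 of the summed signal (y axis) of each marker list (x axis) on the 4 wt (grey) and 3 MK2-/- (red) arrays in medium. The macrophage sums lie between 19.22 and 19.61 on all 7 arrays, and the stromal sums spread most within a genotype, from 13.12 to 16.78 in wt BMDM.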

How the data were processed

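RNA of BMDM was hybridised to 1-colour Agilent whole mouse genome arrays, 1 array for each culture and treatment, and per the file headers the authors read the spots with Feature Extraction 11.0.1.1 (annotation mm9). The deposited scanner files hold background-subtracted intensity values (gProcessedSignal) for 62976 spots per array. The authors also deposited a table of log2 values relative to each probe's median, used here as an alternative. Its correlation with the values computed here, relative to the probe median, was r = 1.

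Here log2 intensities were averaged over the spots of a probe and quantile normalized across all 23 arrays (limma 3.58.1, R 4.3.3), and 1 probe per gene was kept, that with the highest mean signal. Of 55681 probes, only those assigned to a RefSeq (29150) or GenBank (3719) entry counted towards genes, and the others were left out of the main test. The probe choice of the methods, by LPS induction in wt BMDM, uses the wt arrays and was an alternative. Of 25998 entries, 20887 were named through the RefSeq table (GRCm38.p6) and 5111 kept their accession. The fit used lmFit and eBayes over 6 groups, with Benjamini-Hochberg adjustment over all entries and a threshold of 0.05, two-sided. The exact permutation test on single genes used all 35 splits of the 7 arrays, two-sided. A gene not well above background on any array of a group has a lower bound on its fold, from the higher of its own signal and the lowest signal well above background on each array. No spot was saturated and 258 probe values were missing. The number of arrays limits the precision. The procedure was tested on simulated data. The simulated noise was independent between arrays, without a slide effect or shared cultures, so that test does not cover these.

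Groups and replicates came from the labels. The medium and LPS arrays of a culture were treated as separate samples, with culture as a random block as an alternative. Named genes were Mapkapk2, Mapkapk3, all called and detected genes, the gene with the lowest p of each list, called neighbours of Mapkapk2, the macrophage markers and genes called in both medium and the interaction. The genes of lowest p and Sbk3 were added after their values were seen. The members and lists were chosen with earlier results of these data known. Of the list genes, 10 had no match. Alternatives were another scaling, normexp on the median signal and local background with an offset of 50 (the files used here hold no mean signal), a floor of 5, a filter on dim probes, other probe choices, eBayes with trend and robust settings, fewer arrays, the methods' t-test, replicate and culture blocks, age, and leaving out each array. The other arrays were used for the normalization, the choice of probes, the spread and values set beside the comparison. A few genes of the lists and of the lowest p are not reported here.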

Additional observations from a re-analysis of the deposited data

Results flagged for a closer look

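Among the 56 named genes, 6 had 1 of the 4 wt medium arrays far from the other 3 by Dixon's test, which chance does in about 1 of 20 groups. Ralgps2 was at 6.59 in wt replicate 3, with the nearest wt array at 5.67. Cd79a, a B cell marker, was at 6.31 in the same array (nearest 3.90) and Alas2, an erythroid marker that was not well above background on any array, at 2.31 (nearest 1.82). Ngp, a neutrophil granule gene, was at 6.63 in wt replicate 2 (nearest 4.19). In wt replicate 1, Eno1 was at 17.21 (nearest 16.54) and Pf4 at 15.27 (nearest 14.87).

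The difference between the genotypes changed with LPS for Sbk3 by 1.86 on the log2 scale (limma interaction, adjusted p = 0.0384), from -0.16 in medium to 1.70 after LPS, with all signals near background.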

How the results depend on the processing

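The count of 3 called genes was between 0 and 9 over 26 alternatives, with 525 to 1879 genes at an unadjusted p under 0.05. It was 0 with the 7 arrays alone (1209 unadjusted) and under the methods' t-test of log2 signals (1372 unadjusted) or linear signals (1331 unadjusted), 5 with the replicate block by experiment letter and over every non-control probe, and 9 without both wt arrays of the culture of replicate 3 (chosen after seeing the data). Leaving out each array gave 1 to 5 genes: 1 without wt replicate 2 or wt replicate 4, and 5 without MK2-/- replicate 1 or 2. Mapkapk2 was at -3.31 with the 7 arrays alone (adjusted p = 0.201) and under the methods' t-test of log2 signals (0.564), and at -3.36 with linear signals (0.806), no longer past the threshold in each, and ranged from -3.55 to -3.17 when arrays were left out. Its blocked value was -3.25, and the replicate block left 3 genes called. Same-numbered arrays deviated together with r = 0.01, 0.51 and 0.16, and arrays of the same experiment letter with r = 0.01, 0.51 and 0.06 (number 3 joins different letters), so that neither was taken to pair them. The block by letter added Arhgap5 and Mmp8. Over every non-control probe, the additions were both higher in MK2-/- BMDM and well above background on no wt array. An Il18r1 probe (chromosome 1) differed by 2.82 (SE 0.33, limma adjusted p = 0.00169) and was well above background on 2 MK2-/- arrays. The probe kept for Il18r1 differed by -0.19 (SE 0.96), below background. A probe of NM_175692 differed by 0.69 (SE 0.10, limma adjusted p = 0.0281) and was well above background on none of the 7 arrays. The interaction count of 1 became 0 under 75th percentile scaling, normexp, the filter on dim probes, trend and robust settings, every non-control probe and without both wt arrays of that culture, and 0 to 2 when arrays were left out.

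Markers that changed sign, all with an adjusted p of 1.00, were Itgam (0.307 by LPS induction of the probe, 0.0222 as mean over probes), Alas2 (0.00597 with 75th percentile scaling, 0.0650 without wt replicate 3 or its culture, and from -0.125 when other arrays were left out), Adgre1 (-0.0985 without wt replicate 1, up to 0.199 without wt replicate 2) and Csf1r (-0.0133 with age, -0.00724 without wt replicate 4, -0.00713 without MK2-/- replicate 1, up to 0.0380 without MK2-/- replicate 2). Fcgr1 was at 0.0121 with age, 0.0310 without wt replicate 2, 0.0919 without wt replicate 3 or its culture and 0.120 without MK2-/- replicate 1, and at -0.433 without wt replicate 1. Mertk was at 0.0135 with the replicate block, 0.0373 with the block by letter, 0.392 with age, 0.187 without wt replicate 2, 0.194 without wt replicate 3 or its culture and 0.285 without MK2-/- replicate 1, and at -0.491 without wt replicate 1. The cause was not tested. Signals near background and 3 arrays against 4 limit what can be detected.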
